A study of Homo sapiens with 12 samples.

Results

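The initiator methionine tRNA, listed as tRNA-iMet-CAT-1-1, was described at the 3 adenosines that the m1A site table holds for it, positions 49, 57 and 62 counted from the 5′ end of the mature tRNA. These were 3 of 44 listed sites, and the tRNA was 1 of 29 listed tRNAs. It was chosen by its name in the table. No measured value was part of that rule, but earlier results of these data were known. Which of its adenosines were listed may depend on measured mismatches, as described below.

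The libraries came from DLD1, a human colorectal cancer cell line that carried a stably integrated lentiviral construct. OE-WT cells overexpressed TRMT6 and TRMT61A, and CTRL cells were their vector controls. The transgenes were delivered to a cell line that has its own TRMT6 and TRMT61A, and the sources used here do not say whether a line was 1 clone. These libraries hold tRNA reads, so the level of the transgenes was not checked. Each condition was sampled in 2 replicates, and each replicate gave a demethylase-treated antibody pull-down (dma.IP), an untreated m1A antibody pull-down (IP) and the small RNA before pull-down (Input), 12 libraries in all. The labels number the replicates but do not say that they came from separate cultures, so p-values of the models over libraries measure the spread between these libraries, which may be technical. The exact tests on summed reads hold no spread between libraries and, like the intervals, cover counting error only.

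Initiator methionine tRNA brings the first amino acid to the ribosome and takes no part in elongation. N1-methyladenosine (m1A) at adenosine 58 of the T loop is placed by the TRMT6/TRMT61A enzyme, in which TRMT61A carries the catalytic site and TRMT6 helps bind the tRNA. In budding yeast the matching enzyme, Trm6/Trm61, is needed to keep the initiator tRNA stable. The methyl group blocks base pairing, so reverse transcriptase often stops or inserts a wrong base there, and the share of reads with a wrong base (the mismatch rate) was used as the measure of m1A at an adenosine. Whether a mismatch at a listed adenosine outside A58 marks m1A was not tested.

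The sequence of the tRNA is shown first, because all 3 listed adenosines lie in 1 short arm of it. The capitals mark A49, A57 and A62.
tRNA-iMet-CAT-1-1: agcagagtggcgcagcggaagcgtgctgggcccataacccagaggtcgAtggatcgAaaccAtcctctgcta

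The listed gene is RefSeq TRX-CAT1-1 at chr1:153671250-153671321 on the plus strand of hg38, 72 bases long, and GENCODE v44 annotates no gene there. The same 72 bases occurred 8 times in hg38, 1 time on chromosome 1, 6 times on chromosome 6 and 1 time on chromosome 17, so reads could not be assigned to 1 of the 8 gene copies. Copies TRX-CAT1-2, TRX-CAT1-3 and TRX-CAT1-4 on chromosome 6 lay in introns of longer noncoding or unclassified genes. Position 57 is A58 in the canonical numbering of tRNAs, position 49 is canonical 50 and position 62 is canonical 63. A49 and A62 lie on opposite strands of the T stem: A49 faces the base at position 63 and A62 the base at position 50, and all 5 T-stem pairs of the listed sequence were complementary. Of its 18 adenosines, the remaining 15 were not listed.

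The table listed canonical A58 in 8 tRNAs. Of these, 6 T arms, each 17 bases from hg38 with A58 in capitals, are shown because the loop of the initiator differs from the others in the bases around the methylated adenosine.
tRNA-iMet-CAT-1-1 T arm: gatggatcgAaaccatc
tRNA-Gly-GCC-2-1 T arm: ccgggttcgAttcccgg
tRNA-Glu-TTC-4-1 T arm: ccgggttcgAttcccgg
tRNA-Asp-GTC-3-1 T arm: cggggttcgAttccccg
tRNA-Ala-AGC-2-2 T arm: ccgggttcaAtccccgg
tRNA-Gln-TTG-3-3 T arm: ccgagttcaAatctcgg

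The 17 bases of tRNA-Gly-GCC-2-1 and tRNA-Glu-TTC-4-1 were identical, and those of tRNA-Gln-CTG-1-4 were identical to tRNA-Gln-TTG-3-3.

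Depth differed by orders of magnitude between the fractions. Summed over the 44 sites, where a read that covers several sites counts at each, libraries held 62 to 203 reads in dma.IP, 59 to 220 in IP and 33288 to 72519 in Input. Sites of tRNA-Asp took 34.1% to 66.2% of these reads in dma.IP, 17.3% to 39.0% in IP and 93.0% to 94.9% in Input. A share of the listed reads therefore moved with the tRNA-Asp share, and recovery is given below with and without the 10 tRNA-Asp sites. All intervals cover counting error only, since the reads carried no molecular identifiers.

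In Input, read numbers were lower toward the 3′ end of the initiator tRNA in every library. OE-WT replicate 1 had 97, 84 and 34 reads at A49, A57 and A62, and OE-WT replicate 2 had 69, 58 and 38. CTRL replicate 1 had 88, 64 and 40 reads at the same positions, and CTRL replicate 2 had 60, 43 and 26. By mean Input reads per site (58.4), the initiator ranked 11 of 29 tRNAs.

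**Figure D1:**
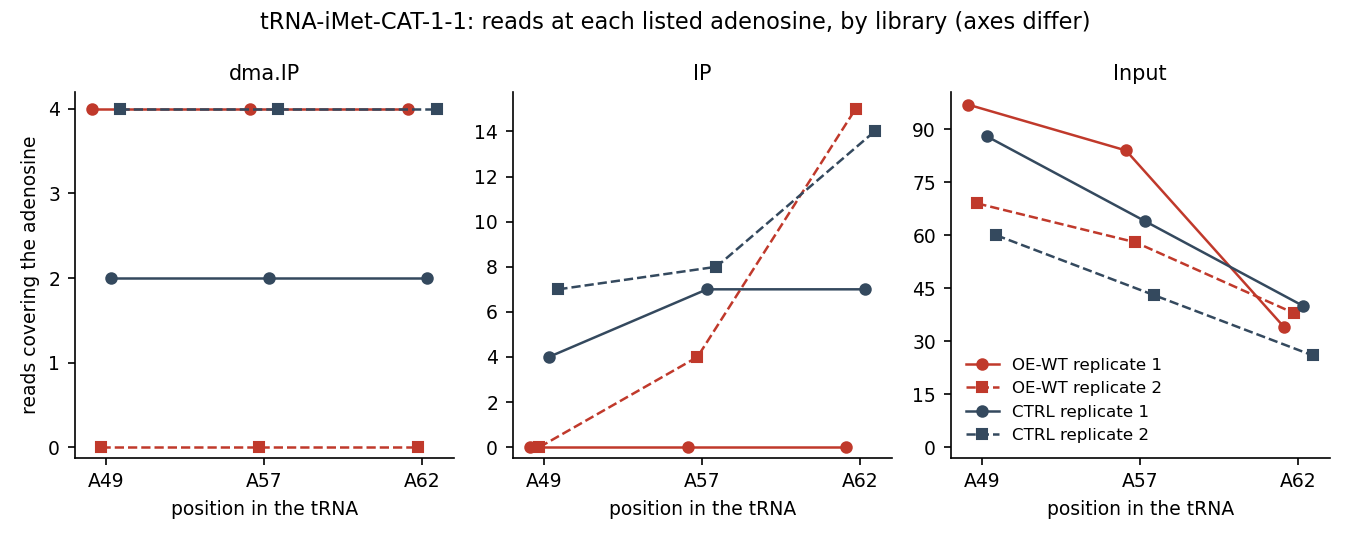
Reads covering A49, A57 and A62 of the initiator tRNA (vertical axis, reads, with a different range in each panel) in the dma.IP, IP and Input libraries; each line is 1 library, OE-WT in red and CTRL in dark blue. Reads descend toward A62 in the 4 Input libraries, climb toward A62 or stay level in the 3 IP libraries with reads, and are equal at all positions in each dma.IP library.

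In IP the profile was the other way round. OE-WT replicate 2 had 0, 4 and 15 reads at A49, A57 and A62, and OE-WT replicate 1 had none at any of them. CTRL replicate 1 had 4, 7 and 7 reads and CTRL replicate 2 had 7, 8 and 14. The empty OE-WT library held only 59 reads over all listed sites, which allows a share of up to 5.08% per site (3 counts of the total) in that library. This limit lay above every initiator share in Input but below the A62 shares of the other IP libraries, 10% in OE-WT replicate 2 and 5.88% and 6.36% in CTRL, and below the A57 share of CTRL replicate 1, 5.88%.

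In dma.IP each library was level across the 3 positions. OE-WT replicate 1 had 4 reads at each of A49, A57 and A62, and OE-WT replicate 2 had 0 at each, which allows up to 2.44% of its 123 reads per site. CTRL replicate 1 had 2 reads at each position and CTRL replicate 2 had 4. Whether the same reads covered all 3 positions was not tested.

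The profile was measured as the coverage ratio, the reads at A49 over those at A62 in 1 library, which needs no scaling between libraries. In the IP libraries with reads it was 0 (0 of 15) in OE-WT replicate 2, 0.571 in CTRL replicate 1 and 0.50 in CTRL replicate 2. In the Input libraries it was 2.85 and 1.82 in OE-WT and 2.20 and 2.31 in CTRL. The 3 IP values all lay below the 4 Input values, with means of 0.357 ± 0.311 (SD, n = 3) in IP and 2.29 ± 0.428 (SD, n = 4) in Input. The difference of 1.94 had a two-sided exact permutation p = 0.0571, the lowest that 3 against 4 libraries can give, so the design could not pass the 0.05 threshold. The same held within CTRL, where the mean ratio was 0.536 in IP and 2.25 in Input (exact permutation p = 0.333, the lowest possible with 2 against 2).

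The ratio was also lower in IP than in Input for both narrower pairs of positions. For A57 over A62 it averaged 0.613 ± 0.368 (SD, n = 3) in IP and 1.81 ± 0.442 (SD, n = 4) in Input. For A49 over A57 it averaged 0.482 ± 0.444 (SD, n = 3) in IP and 1.28 ± 0.124 (SD, n = 4) in Input. The step between the fractions was thus seen on both sides of the A58 position, and each of these comparisons also reached exact p = 0.0571. These ratios share reads and are not independent.

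In dma.IP the A49 over A62 ratio was 1.00 in all 3 libraries with reads, against a mean of 0.357 in IP. The difference of 0.643 (exact permutation p = 0.1, the lowest that 3 against 3 libraries allow) was looked at after the values were seen, and it rests on 10 dma.IP reads per position. A57 over A62 differed by 0.387 between dma.IP and IP (exact permutation p = 0.4), and the value of 1.00 in CTRL replicate 1 of IP equalled those of dma.IP.

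The inverted profile was not particular to the initiator tRNA. In tRNA-Gln-TTG-3-3 the ratio of A57 over A69 averaged 0.50 ± 0.50 (SD, n = 3) in dma.IP, 0.343 ± 0.256 (SD, n = 4) in IP and 2.60 ± 0.898 (SD, n = 4) in Input, with few reads (24 at A69 in Input). In tRNA-Asp-GTC-3-1, by far the deeper of these tRNAs, A44 over A65 averaged 0.965 in dma.IP, 1.04 in IP and 0.994 in Input. The 2 ratios of the initiator and the glutamine tRNA thus moved the same way, and that of the aspartate tRNA stayed near 1. Another pair of the aspartate tRNA, A37 over A65, averaged 0.844 in dma.IP, 0.979 in IP and 0.851 in Input. Its A46 over A65 and A57 over A65 averaged 1.00 to 1.04. In tRNA-Gln-CTG-5-1, A56 over A58 averaged 0.583 in dma.IP, 0.435 in IP and 0.833 in Input (12 reads at A58 in Input). That ratio was lower in IP but was not above 1 in Input. Whether the initiator differed from these tRNAs in this step was not tested.

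**Figure D2:**
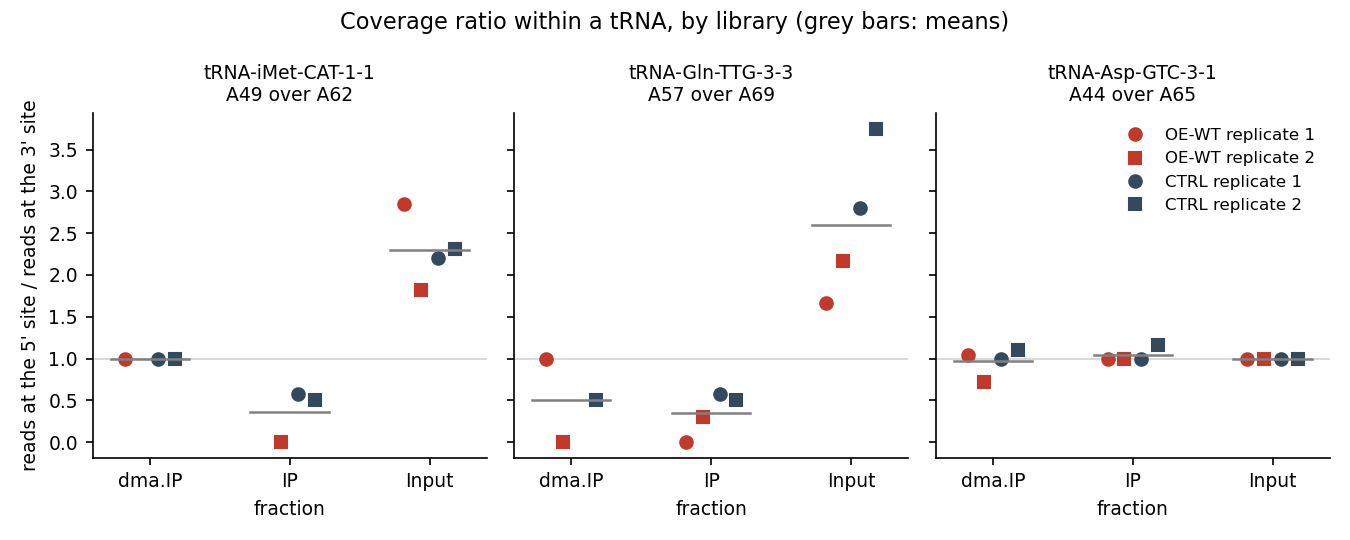
Ratio of reads at the 5′ site to reads at the 3′ site of the same tRNA (vertical axis) in dma.IP, IP and Input; points are libraries, OE-WT in red and CTRL in dark blue, and grey bars are means over the libraries with reads. The initiator ratio lies at 1.00 in dma.IP, at or below 0.571 in IP and at or above 1.82 in Input. The mean of tRNA-Asp-GTC-3-1, shown for A44 over A65, stays near 1.

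No difference in the Input profile between OE-WT and CTRL could be shown with 2 libraries each. The A49 over A62 ratio averaged 2.33 ± 0.733 in OE-WT and 2.25 ± 0.0762 in CTRL (SD, n = 2 each), a difference of 0.0805 (exact permutation p = 1, with 0.333 the lowest possible). The A49 over A57 ratio was lower in both OE-WT libraries, at 1.15 and 1.19, against 1.38 and 1.40 in CTRL, and these did not overlap (difference −0.213, exact permutation p = 0.333, the lowest possible).

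Relative to the total over the listed sites, the initiator tRNA was recovered more in IP than in Input. At A57 the share was 0% and 2.67% in the OE-WT IP libraries and 5.88% and 3.64% in the CTRL IP libraries, against 0.116% and 0.0955% in OE-WT Input and 0.192% and 0.0635% in CTRL Input. The IP library at 0% lay below all 4 Input libraries and the other 3 IP libraries lay above them. The fitted log2 fold change of IP over Input was 4.74 at A57 (edgeR adjusted p = 0.000106), 3.35 at A49 (adjusted p = 0.00643) and 6.53 at A62 (adjusted p = 3.88e-06). All 3 passed the threshold, as did 36 of the 44 sites (81.8%), 26 of them higher in IP.

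Most of this step was shared by the other listed sites, whose median log2 fold change was 4.07. Relative to that median, A49 lay 0.71 below, A57 0.67 above and A62 2.46 above, at ranks 26, 20 and 11 of 44 from the highest. The direction of the A49 and A57 changes depended on the scaling. With TMM factors (a trimmed mean of ratios between libraries), which moved the median of all sites to −1.88, the values were −2.07 at A49 (adjusted p = 0.0125), −0.85 at A57 (adjusted p = 0.288) and 0.87 at A62 (adjusted p = 0.228). DESeq2 size factors, with a median of −0.44, gave −1.24 (adjusted p = 0.121), 0.09 (adjusted p = 0.884) and 1.78 (adjusted p = 0.00198). A62 lay above the median of all sites under each of these scalings. A scaling shifts all sites of a library alike, so this agreement is no separate support. With 1 row per tRNA, scaled to the total over those rows, the initiator was called higher in IP (3.86, edgeR adjusted p = 3.38e-07). For A57 alone, an increase was called on the total over all listed sites but not with TMM factors or DESeq2. At A49 the call was lost without CTRL replicate 2 (log2 fold change 2.45, adjusted p = 0.0867).

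Set against the 34 sites outside tRNA-Asp, the initiator carried 0% and 15.3% of the OE-WT IP reads and 18.9% and 16.4% of the CTRL IP reads, against 5.70% and 5.12% in OE-WT Input and 8.26% and 3.71% in CTRL Input. On this scale too, the library at 0% (of 36 reads) lay below the 4 Input libraries and the other 3 above them. With library totals over these 34 sites the log2 fold change of IP over Input was −0.30 at A49 (adjusted p = 0.802), 1.02 at A57 (adjusted p = 0.205) and 2.77 at A62 (adjusted p = 0.000146).

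In dma.IP the initiator carried 16% and 0% of the reads outside tRNA-Asp in OE-WT and 20% and 26.1% in CTRL. The log2 fold change of dma.IP over IP, on the total over all listed sites, was 0.67 at A49, −0.58 at A57 and −1.59 at A62. Without OE-WT replicate 2 the A62 value was −0.50. None passed the threshold (adjusted p = 0.222 at A62), and 3 of the 44 sites did (6.82%), none of them in the initiator.

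Between the conditions, no recovery difference passed the threshold at the 3 positions when all 44 sites were tested. A49 in IP passed under 1 filter, which it met through CTRL reads alone. In Input the log2 fold changes of OE-WT over CTRL were −0.49 at A49, −0.24 at A57 and −0.49 at A62, and 0 of 44 sites were called (0%), with 1 site at an unadjusted p under 0.05. The CTRL libraries lay on either side of the OE-WT libraries, with A57 shares of 0.116% and 0.0955% in OE-WT against 0.192% and 0.0635% in CTRL. Without CTRL replicate 1 the A57 value turned to 0.74 (adjusted p = 0.694).

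In IP the log2 fold change of OE-WT over CTRL was −1.38 at A57 (adjusted p = 0.830), and −0.77 without OE-WT replicate 1. The OE-WT IP libraries held 59 and 150 reads over all listed sites, against 119 and 220 in CTRL. A49 had 0 reads in both OE-WT libraries and 4 and 7 in the CTRL libraries. A49 did not pass the threshold in edgeR over all 44 sites (adjusted p = 0.554). With only the 23 sites of 10 or more summed IP reads tested, it was the 1 site called (4.35%, edgeR adjusted p = 0.0318). A49 met that filter through CTRL reads alone, the condition where it was higher. The filter was thus not independent of the comparison, and no conclusion is drawn from this call. No fold is given, since both OE-WT libraries were at 0, and 1 of them had no reads at any of the 3 positions. In IP 0 of 44 sites were called (0%), with 2 at an unadjusted p under 0.05. In dma.IP the value was −1.41 at each position, from 4 and 0 reads in OE-WT and 2 and 4 in CTRL, and it was −0.60 without OE-WT replicate 2. Again 0 of 44 sites were called (0%), with 1 at an unadjusted p under 0.05. The step of IP over Input at A57 was 1.11 lower on the log2 scale in OE-WT than in CTRL (adjusted p = 0.817). That difference, OE-WT minus CTRL, was −1.71 without CTRL replicate 1, or −0.39 when OE-WT replicate 1 was left out. In all 1 of 44 sites passed this test of the difference (2.27%), none in the initiator.

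The mismatch rate in Input was highest at A57, the A58 position. It was 15.5% and 10.3% in the OE-WT libraries and 10.9% and 16.3% in the CTRL libraries. At A49 it was 2.06% and 0% in OE-WT and 4.55% and 3.33% in CTRL. At A62 it was 2.94% and 0% in OE-WT and 5.0% and 0% in CTRL. Over the 4 Input libraries the rate averaged 13.3% ± 3.05 at A57, 2.49% ± 1.94 at A49 and 1.99% ± 2.44 at A62 (SD, n = 4).

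A57 exceeded A49 in 4 of 4 Input libraries, by 10.8 percentage points on average and by 6.39 at the least. It exceeded A62 in 4 of 4 libraries, by 11.3 points on average and by 5.94 at the least. Each comparison had a two-sided exact sign-flip permutation p = 0.13, the lowest that 4 libraries can give. On summed reads 33 of 249 reads were mismatched at A57 (13.3%, exact Clopper-Pearson 95% interval 9.30% to 18.1%), 8 of 314 at A49 (2.55%, 1.11% to 4.96%) and 3 of 138 at A62 (2.17%, 0.451% to 6.22%), and the interval of A57 did not overlap the others.

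**Figure D3:**
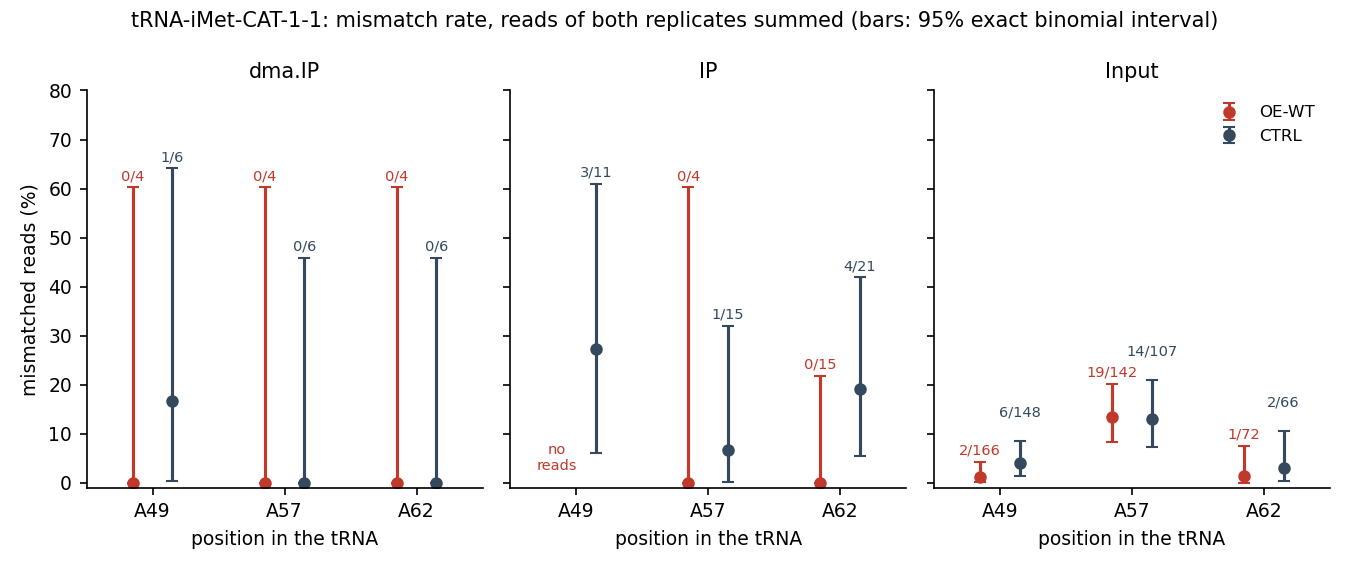
Mismatch rate (vertical axis, % of reads) at A49, A57 and A62 in dma.IP, IP and Input, OE-WT in red left of CTRL in dark blue; points are summed reads of both replicates, bars are exact Clopper-Pearson 95% intervals and the fractions give mismatched over total reads. In Input, A57 stands above A49 and A62 in both conditions, and the wide bars in dma.IP and IP come from 4 to 21 reads per point.

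No difference between OE-WT and CTRL in the Input rate passed the threshold at the 3 positions. At A57, 19 of 142 reads were mismatched in OE-WT (13.4%) and 14 of 107 in CTRL (13.1%), a difference of 0.296 percentage points with a Newcombe 95% interval of −8.68 to 8.63 (quasi-binomial adjusted p = 0.984). The mean of the library rates was 12.9% ± 3.63 in OE-WT and 13.6% ± 3.78 in CTRL (SD, n = 2 each), a difference of the other sign. The interval leaves room for a change of more than 8 points in either direction, so these data do not show that the rates were alike.

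At A49 the difference of OE-WT minus CTRL was −2.85 points (−7.44 to 0.927, adjusted p = 0.829), from 2 of 166 reads in OE-WT and 6 of 148 in CTRL. Both OE-WT libraries lay below both CTRL libraries there, but 2 against 2 libraries can fall in this order without a difference. Such an order was not particular to A49. At A58 of tRNA-Gly-GCC-2-1 and of tRNA-Glu-TTC-4-1 both OE-WT libraries lay above both CTRL libraries. How many of the other sites separated was not counted, and no conclusion is drawn from the order at A49. At A62 it was −1.64 points (−9.09 to 4.81, adjusted p = 0.838), from 1 of 72 reads in OE-WT and 2 of 66 in CTRL. Of the 23 sites with enough Input reads to test, 0 were called (0%) and 0 had an unadjusted p under 0.05.

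Among the 5 canonical A58 sites with 20 or more reads in every Input library, the initiator had the second highest rate. tRNA-Gly-GCC-2-1 averaged 23.1% ± 1.65, the initiator 13.3% ± 3.05, tRNA-Ala-AGC-2-2 6.80% ± 3.87, tRNA-Glu-TTC-4-1 5.53% ± 1.38 and tRNA-Asp-GTC-3-1 2.63% ± 0.261 (SD, n = 4 each). The highest library of the initiator, 16.3%, lay below the lowest of tRNA-Gly-GCC-2-1, 21.0%. The lowest library of the initiator, 10.3%, lay below the highest of tRNA-Ala-AGC-2-2, 11.0%, so the spread of these neighbours overlapped. The other 3 A58 sites, in tRNA-Gln-TTG-3-3, tRNA-Gln-CTG-1-4 and tRNA-Tyr-GTA-2-1, had 57, 84 and 16 Input reads in all and cannot be placed against it.

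**Figure D4:**
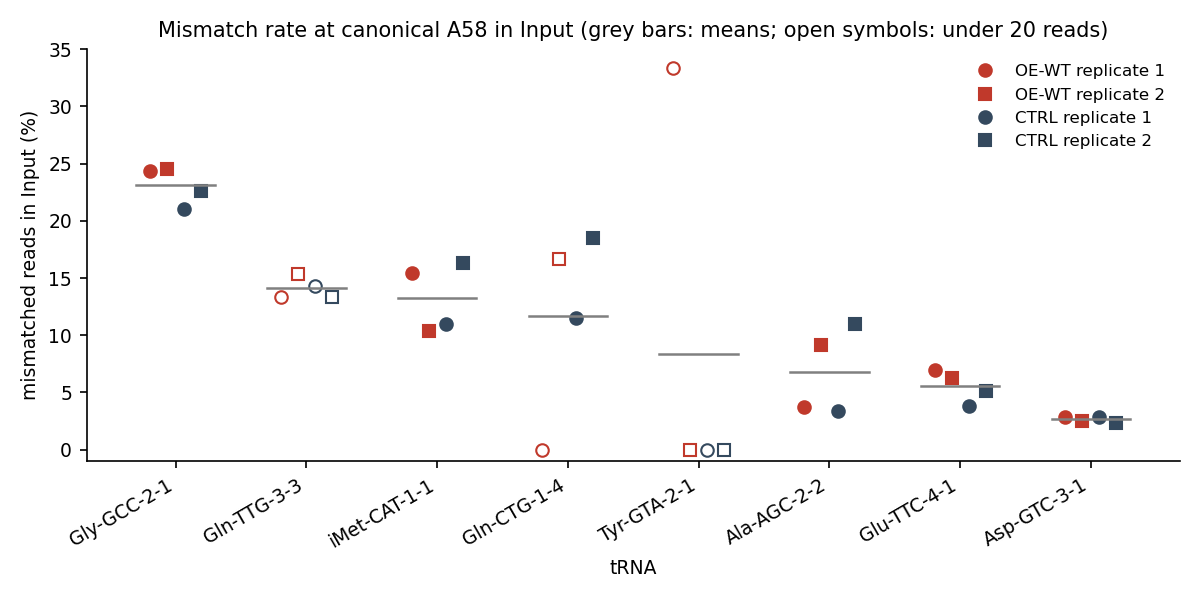
Mismatch rate at canonical A58 in Input (vertical axis, % of reads) for the 8 tRNAs listed there; points are libraries, OE-WT in red and CTRL in dark blue, open symbols have under 20 reads and grey bars are means. The 4 initiator libraries lie between 10.3% and 16.3%, below those of tRNA-Gly-GCC-2-1 and above those of tRNA-Glu-TTC-4-1 and tRNA-Asp-GTC-3-1.

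The observed rate at A57 was 5.26% after the pull-down, but too few IP reads covered it to tell a rise from a fall. In IP 0 of 4 reads were mismatched in OE-WT and 1 of 15 in CTRL, 1 of 19 in all (5.26%, exact interval 0.133% to 26.0%), against 33 of 249 in Input. The difference of IP minus Input was −7.99 points (−14.4 to 11.7, Fisher's exact test on summed reads, adjusted p = 0.632), rank 41 of 44 sites from the highest, while the median over the sites was 9.70 points higher in IP. All 44 listed sites had at least 1 mismatched IP read, and 35 had exactly 1, so a listed site could not have an IP rate of 0 and the rates of sites with few IP reads were bounded from below. This holds for A57, whose single mismatched IP read came from CTRL replicate 2.

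The mismatched IP reads of the T-stem positions came from 1 library each. At A49 3 of 11 IP reads were mismatched, all 3 among the 7 reads of CTRL replicate 2, against 8 of 314 in Input. The difference was 24.7 points (7.03 to 54.0, exact adjusted p = 0.0454), and 4 of the 44 sites were called in this comparison (9.09%), all 4 higher in IP. Since every listed site held a mismatched IP read, the sites may have been listed for it. The call is therefore no independent support for a higher rate in IP. With each replicate as a block (its IP and Input libraries together) the A49 difference was 22.8 points and was not called (exact Mantel-Haenszel adjusted p = 0.135). It was −2.36 points without CTRL replicate 2 and 41.1 points without CTRL replicate 1 (exact adjusted p = 0.0117). The call was also lost without OE-WT replicate 1 (exact adjusted p = 0.0665) or OE-WT replicate 2 (exact adjusted p = 0.0731), which hold no A49 reads in IP.

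At A62 4 of 36 IP reads were mismatched, all 4 among the 7 reads of CTRL replicate 1, against 3 of 138 in Input. The difference of 8.94 points (1.12 to 23.2) did not pass the threshold on summed reads (exact adjusted p = 0.216). It passed with the replicate as a block (12 points, exact Mantel-Haenszel adjusted p = 0.0367), under the same limit from the listing. Without CTRL replicate 1 it was −1.02 points. No OE-WT IP library held a mismatched initiator read. The 0 of 15 OE-WT reads at A62 allow a share of up to 20% by the limit of 3 counts (exact upper limit 21.8%). The 0 of 4 at A57 allow up to 75% by that limit, which is coarse at so few reads (exact upper limit 60.2%).

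Between the conditions in IP, A57 had 0 of 4 mismatched reads in OE-WT and 1 of 15 in CTRL (exact p = 1), and A62 had 0 of 15 in OE-WT and 4 of 21 in CTRL (exact p = 0.13, adjusted p = 1). A49 had no OE-WT reads and could not be compared. All mismatched initiator reads in IP came from CTRL, so its sites met the apparent listing condition, a mismatched IP read, through CTRL alone. A lower OE-WT rate was thus favoured by the listing, and no conclusion is drawn from these differences. Of the 31 sites tested in IP, 0 were called (0%) and 0 had an unadjusted p under 0.05. Without CTRL replicate 2 the A62 difference was −57.1 points, and without CTRL replicate 1 it was 0.

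After demethylase treatment 1 of 10 reads was mismatched at A49, from CTRL replicate 2, and 0 of 10 at each of A57 and A62. At A57 the rate was 0 of 4 in OE-WT and 0 of 6 in CTRL, 0 of 10 in all, which allows a share of up to 30.0%. The difference of dma.IP minus IP was −5.26 points at A57 (−24.6 to 22.8), −17.3 at A49 (−47.7 to 17.8) and −11.1 at A62 (−25.3 to 17.4). Leaving out a replicate moved these between −8.33 and 0 at A57, −30.4 (without CTRL replicate 1) and 0 (without CTRL replicate 2) at A49, and −19.0 (without OE-WT replicate 2) and 0 (without CTRL replicate 1) at A62. Of 34 sites tested 0 were called (0%), with 1 at an unadjusted p under 0.05, and their median difference was −6.90 points. Every listed site held a mismatched IP read, so IP rates were bounded from below. Negative differences of dma.IP minus IP were thus favoured by the listing and are no independent support for a loss of mismatches. Between the conditions in dma.IP 0 of 6 sites were called (0%) and 0 had an unadjusted p under 0.05. The dma.IP interval at A57, 0% to 30.8%, held the whole Input interval, so removal of the mismatch signal could not be read from this tRNA.

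The tRNAs whose reads followed the initiator most closely over the 12 libraries were tRNA-Gly-GCC-2-1 (Pearson r = 0.664), tRNA-Ala-TGC-4-1 (r = 0.431) and tRNA-Gln-CTG-1-4 (r = 0.430). Likeness was taken on log2 of the mean reads per site per 1000 listed reads, with 1 added, among the tRNAs with a mean of 20 or more Input reads per site. These 12 points share library depth and the tRNA-Asp share. Over the 8 IP and dma.IP libraries alone the values were 0.483, 0.372 and −0.05, so the last of them did not follow the initiator outside the step to Input.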

How the data were processed

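Small RNA of DLD1 cells was stripped of amino acids and sequenced (Illumina NovaSeq). The methods state that reads were filtered at a quality threshold, trimmed with Cutadapt 1.9.3, kept at 15 nt or longer and aligned with Bowtie2 to tRNA sequences with CCA appended, in which isoforms of identical score had been merged. Reads were counted with SAMtools. The mismatch caller, the rule for listing a site and the demethylase step are not given in the sources used here. The authors deposited, for each site and library, the count of reads and the count of mismatched reads, not normalized, and the mismatch rate as a fraction, which is 0 in the table for a site lacking reads. The authors' own differences and ratios of rates were not used. Statements cover the 44 sites of the table used here, which may be incomplete.

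Rates were recomputed from the counts. Input rates were compared with a quasi-binomial logistic model per site (20 or more reads in every library, dispersion of at least 1, F test), other rates by Fisher's exact test after summing the reads of a group, and reads per site with the quasi-likelihood test of edgeR 4.0.16, with the sum over the 44 sites as library size. All p-values were two-sided and adjusted over the sites tested with the Benjamini-Hochberg method, with a threshold of 0.05. Ratios within a tRNA were compared with exact permutation tests over libraries. Shares have Clopper-Pearson and differences Newcombe 95% intervals, and a share of 0 has the limit of 3 counts. The quasi-binomial and edgeR fits were run on simulated counts. For the mismatch rates these held counting error only, so they do not show how that model behaves with spread between libraries. Alternatives were TMM factors, DESeq2 1.42.0, limma 3.58.1 on logit rates with an offset of 0.01, other minimums, 1 row per tRNA, a replicate block, each replicate left out and, added after the data were seen, totals without tRNA-Asp, the mean of library rates, ratios within a condition and the dma.IP ratio. The tRNA, the sites and the comparisons were chosen with earlier results of these data known. The text names the 3 sites, the 3 tRNAs most alike in reads and the other A58 sites. It names tRNA-Gln-TTG-3-3, tRNA-Gln-CTG-5-1 and tRNA-Asp-GTC-3-1 for the coverage ratio. The 2 replicates of a condition were spread differently over the sites in Input (chi-square 940 in OE-WT and 432 in CTRL) and were kept as separate samples. Sequences were read from hg38 and matched all 29 listed tRNAs. Software was Python 3.11.15 (SciPy 1.17.1) and R 4.3.3.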

Additional observations from a re-analysis of the deposited data

How the results depend on the processing

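Signs are of OE-WT minus CTRL, IP minus Input or dma.IP minus IP, at A57 unless another position is named. The Input mismatch difference changed sign with limma on logit rates (−0.083 log2 odds) and with the mean of library rates (−0.698 points), and leaving out a replicate moved it between −2.90 and 2.44 points at A57 and between −3.61 and 1.39 at A62. In IP the mismatch difference between conditions lay between −12.5 and 0 points without a replicate (A62 −57.1 to 0), and dma.IP minus IP between −8.33 and 0 (A49 −30.4 to 0, A62 −19.0 to 0), with 0 within OE-WT. IP minus Input at A62 was −1.39 points within OE-WT, lay between −1.02 and 16 without a replicate, and at A49 between −2.36 and 41.1. None of the Input or IP differences between conditions passed the threshold in any setting at A57.

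Recovery of IP over Input was −0.85 with TMM factors, 0.091 with DESeq2 and 1.02 without tRNA-Asp at A57, and −2.07, −1.24 and −0.30 at A49, against a called increase on the total of all listed sites. With 1 row per tRNA the increase of the initiator was called as well (3.86, edgeR adjusted p = 3.38e-07). The cause of this dependence on the scaling was not tested beyond the tRNA-Asp share. In Input, OE-WT over CTRL was 0.14 with DESeq2 and 0.035 without tRNA-Asp, and lay between −0.86 and 0.74 without a replicate (A49 −1.09 to 0.48, A62 −1.14 to 0.50). Without a replicate the IP difference at A62 lay between −0.18 and 0.69. Folds could not be given for OE-WT IP at A49, IP without OE-WT replicate 2 or dma.IP without OE-WT replicate 1. All remaining OE-WT libraries were at 0 reads there. The call of A49 in IP among 23 sites of 10 or more reads (edgeR adjusted p = 0.0318) rests on a filter met through CTRL reads alone. The dma.IP over IP change was 0.35 without tRNA-Asp, and at A49 −0.39 with 1 row per tRNA and −0.090 to 1.31 without a replicate. The difference of the IP step between conditions at A62, 0.51, was −0.63 with TMM factors, −0.45 with DESeq2, −0.69 with 1 row per tRNA, −0.22 with the replicate block and −0.48 to 1.27 without a replicate. The Input A49 over A62 difference lay between −0.438 and 0.599 without a replicate and was −0.213 for A49 over A57. No initiator site reached 100 reads in every Input library.

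The replicate number was also fitted as a block. Between conditions it is only a shared number (correlation of same-numbered deviations 0.00506 in Input, 0.194 in IP and −0.731 in dma.IP), and the block called 0 sites in each fraction, as without it. In dma.IP a crossed pairing called 1 of 44 sites, against 0 without pairing. Within a condition it marks the fractions of 1 replicate, and with that block IP over Input called 33 of 44 sites, against 36 without it, with 4.83 at A57 (adjusted p = 1.87e-05).
Depth was 10 to 36 summed reads per position in dma.IP and IP.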
